A study of Mus musculus with 11 samples.

Results

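The genes described here are Pde3b and 6 other cyclic nucleotide phosphodiesterases of mouse T cells, Pde2a, Pde4a, Pde4b, Pde4d, Pde7a and Pde8a, read in CD4 T cells transduced with FoxP3 or its variants. All probe sets annotated with exactly 1 gene symbol, that of a member, were taken, which gave 7 genes with 22 of the 45101 probe sets on the array. Pde3b and Pde4a had 1 probe set each, Pde4d and Pde8a 2, Pde2a 3, Pde4b 6 and Pde7a 7. In the RefSeq gene table Pde2a, Pde3b and Pde8a lie on chromosome 7, Pde4a on 9, Pde4b on 4, Pde4d on 13 and Pde7a on 3. No filter on low values was applied, so all 22 probe sets were tested.

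The 11 arrays covered 4 groups of BALB/cA mouse cells: wild type FoxP3, called WT (3 arrays), FoxP3 with the A384T substitution (3), FoxP3 with the R397W substitution (2) and mock, the empty MIGR1 retroviral vector (3). The 2 substitutions lie in the forkhead DNA-binding domain and are known from patients with IPEX, the autoimmune disease of FOXP3 deficiency. All groups, mock included, started as naive CD4 T cells (CD25-, CD45RB high) from lymph nodes and spleen, were stimulated with anti-CD3e at 0.5 µg/ml and IL-2 at 10 ng/ml beside syngeneic spleen cells that lacked T cells and had been given 20 Gy, and were infected after 24 h. CD4+ cells with high GFP were taken by sorting on day 7, so the FoxP3 here is expressed from a retrovirus in conventional T cells activated in culture, with IL-2 present throughout. No label states that arrays of 1 group stem from different cultures or mice, so the spread behind each p-value may be technical.

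Cyclic AMP is made by adenylyl cyclases when Gs-coupled receptors are engaged, activates protein kinase A and EPAC, and damps signalling from the T cell receptor. Phosphodiesterases end the signal by hydrolysing the nucleotide, and the families differ in substrate and control. PDE3B hydrolyses cyclic AMP and is inhibited by cyclic GMP, the PDE4 enzymes are specific for cyclic AMP and inhibited by rolipram, and PDE7A and PDE8A are cyclic AMP-specific enzymes of high affinity that rolipram does not inhibit. PDE2A hydrolyses both nucleotides and is stimulated by cyclic GMP. Regulatory T cells are known for high cyclic AMP, and Pde3b is known as a gene that FoxP3 represses in them.

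Values are log2 signals set to 0 at the median of the 3 mock arrays at each probe set, as deposited, so 1 of the 3 mock values is always 0 and expression levels, or levels of one gene against another, cannot be read. Differences are log2 differences between group means with their standard errors, from limma fitted to all 11 arrays. A probe set was called at a p under 0.05 after adjustment over the 34945 probe sets with 1 symbol, and "rose" and "fell" are used of called probe sets only. Because RNA came from pools of sorted cells, fewer cells of a type and less RNA per cell cannot be told apart.

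The Foxp3 probe set read -0.066, -0.0038 and 0.11 in WT, 0.33, 0.10 and 0.30 in A384T, -0.19 and -0.39 in R397W and 0.00, -0.34 and 0.26 in mock. It differed from mock by 0.04 ± 0.15 in WT (adjusted p = 0.972), by 0.27 ± 0.15 in A384T (adjusted p = 0.546) and by -0.27 ± 0.17 in R397W (adjusted p = 1). The sources used here do not place its probes inside or outside the retroviral insert, so it could not check the labels. T cell identity could not be checked by level. Among lists of markers of other cells, the mean over the macrophage and dendritic cell list lay between -0.37 and -0.08 in WT, -0.33 and -0.29 in A384T, -0.08 and 0.17 in R397W and -0.08 and 0.21 in mock. The fibroblast and endothelium list lay between 0.21 and 0.38 in WT, 0.10 and 0.25 in A384T, -0.05 and 0.09 in R397W and -0.07 and 0.08 in mock, and the erythroid and platelet list between -0.23 and -0.09 in WT, -0.20 and -0.14 in A384T, -0.01 and 0.10 in R397W and -0.05 and 0.08 in mock. Single genes weigh on these means: the median difference from mock was -0.01 for the macrophage list, -0.09 for the erythroid list and 0.08 for the fibroblast list in WT, with extremes of -1.15, -0.51 and 2.33. Called probe sets in WT over mock were Col1a2 (higher) of the fibroblast list and Cd2 (higher) and Cd5 (lower) of the CD4 T cell list. In A384T over mock they were Cd2 and 2 of the B cell marker Ighm (higher) and Cd5, Cd28, Adgre1 and Itga2b (lower), beside 2.7% of all probe sets called. The B cell list held 19 probe sets, with a median of -0.04 in A384T over mock and extremes of -0.35 and 0.92. The part of these marker genes in the phosphodiesterase differences was not tested, and with levels lost it cannot be said which markers were absent.

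Pde3b had the largest difference of the 22 probe sets, and its 4 groups stood in an order without overlap. It read -1.86, -1.71 and -1.32 in WT, -0.93, -0.44 and -0.30 in A384T, 0.14 and 0.20 in R397W, and 0.03, -0.04 and 0.00 in mock. All WT arrays lay below all A384T arrays, these below all mock arrays, and both R397W arrays above mock. The means were -1.63 ± 0.28 in WT, -0.56 ± 0.33 in A384T (SD, n = 3 each), 0.17 ± 0.04 in R397W (n = 2) and -0.0047 ± 0.035 in mock (n = 3). Pde3b fell by 1.63 ± 0.17 on the log2 scale in WT against mock (95% interval -2.01 to -1.24, adjusted p = 0.000701), a level 3.09-fold lower, and ranked 264 by size among the 34945 probe sets. In A384T its log2 difference from mock was -0.55 ± 0.17 (95% interval -0.94 to -0.17), 1.47-fold. It did not pass the test (adjusted p = 0.165) but passed with the array number as a block (adjusted p = 0.0272). In R397W the difference from mock was 0.17 ± 0.19 with an interval of -0.26 to 0.61.

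**Figure D1:**
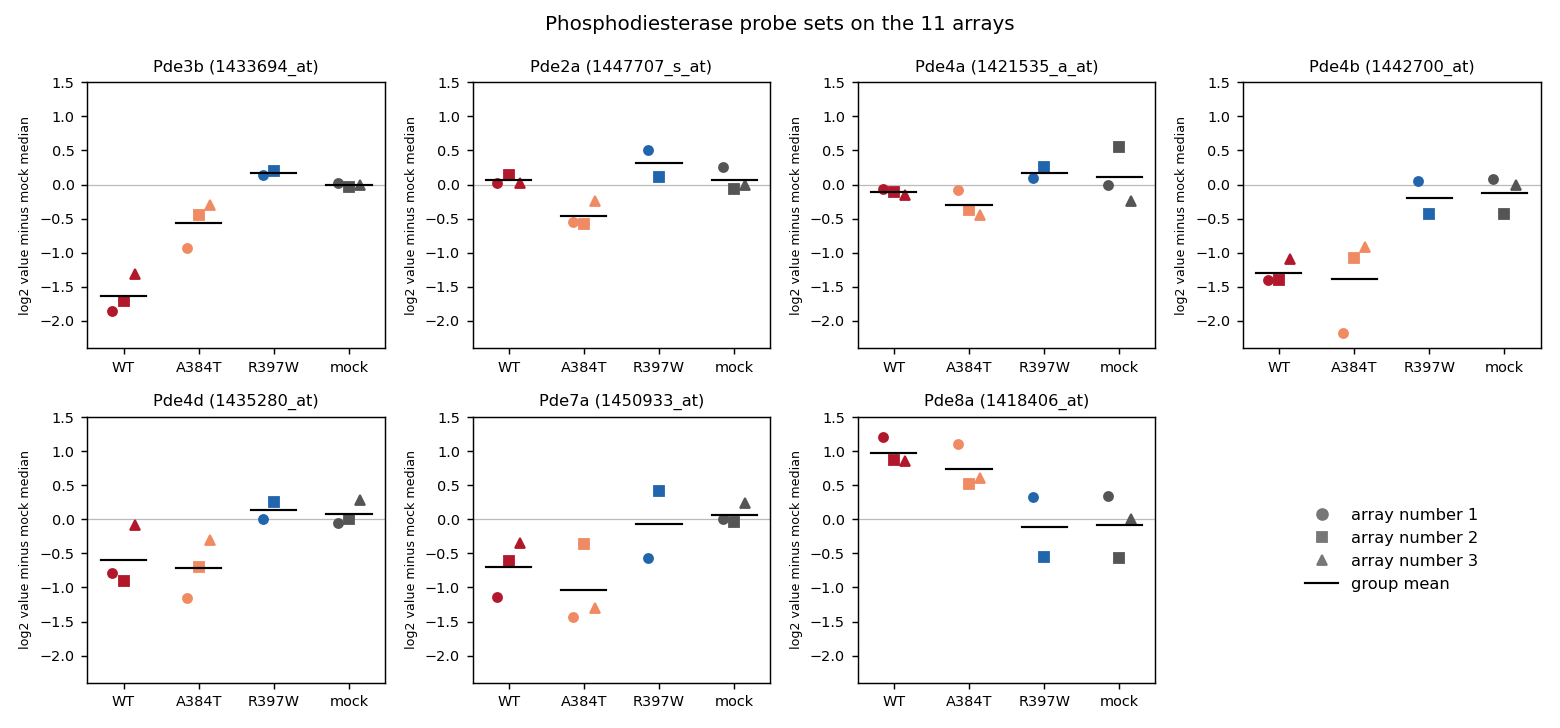
Log2 value on each array, relative to the mock median, for the probe set of each phosphodiesterase gene that varied most over the arrays, with groups from left to right WT, A384T, R397W and mock; points are arrays, their shape gives the array number, and bars are group means. Pde3b is lowest in WT (mean -1.63) and intermediate in A384T (-0.56), while Pde8a is higher on every WT and A384T array than on any R397W or mock array.

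The comparison of the variants with wild type gives the distance of each variant group from WT. How strongly each FoxP3 protein was expressed is not known here, so a substitution and a difference in expression cannot be told apart. Pde3b was 1.80 ± 0.19 higher in R397W than in WT (95% interval 1.37 to 2.23, adjusted p = 0.00125), 3.48-fold. In A384T it was 1.07 ± 0.17 higher than in WT (95% interval 0.69 to 1.46), 2.10-fold, which missed the threshold (adjusted p = 0.0668) but passed it when the array number was used as a block (adjusted p = 0.00485). The 3 differences between A384T and WT arrays of the same number were 0.94, 1.27 and 1.01. R397W exceeded A384T by 0.73 ± 0.19 (adjusted p = 0.115). The A384T over WT difference passed with the probe sets of each gene averaged (adjusted p = 0.038) and after quantile normalization of the centred values (0.0468). It did not pass with a trended, robust prior (0.357) or only the 2 groups compared (0.401). Nor did it pass with 1 probe set per gene (0.063), all probe sets but controls (0.0756) or array medians at 0 (0.0724). Without the arrays numbered 1 it was 1.14. The A384T over WT difference was also called without A384T array 1 (1.26, adjusted p = 0.0393), and in none of the other 10 fits that left out 1 array (0.95 to 1.23, adjusted p up to 0.287). The calls for Pde3b in WT over mock and R397W over WT held in each of these 11 fits and in the 9 other alternative settings.

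Over the 11 arrays the probe sets that followed Pde3b most closely were those of Stk17b (Pearson r = 0.986), a kinase of the DAPK family that sets T cell receptor thresholds, Tbc1d4 (0.974), a Rab GTPase-activating protein of glucose transporter traffic, Eif2ak3 (0.969), the stress kinase PERK, Ehd3 (0.964) and Iqsec1 (0.964), an exchange factor for ARF6. Most opposed were Cyp11a1 (-0.978), the side-chain cleavage enzyme that begins steroid synthesis, Sorcs2 (-0.977), Disp1 (-0.970), Gm17767 (-0.966) and Gtf3c6 (-0.965). These coefficients are a description, since the arrays share the 4 groups, the array numbers and the normalization. The probe sets were chosen for likeness to Pde3b, so a like order of groups follows from the choice. A384T stood nearer to mock than to WT in Stk17b (-0.58 from mock, 0.75 from WT), Iqsec1 (-0.59 and 0.77), Eif2ak3 (-0.24 and 0.37) and Tbc1d4, but not in Ehd3 (-1.27 from mock). Tbc1d4 was -3.70, -3.63 and -2.34 in WT, -1.15, -0.46 and -0.46 in A384T, 0.34 and 0.03 in R397W and 0.02, -0.58 and 0.00 in mock. Its A384T over WT difference of 2.54 ± 0.35 passed the test (adjusted p = 0.0296), as did that of Cyp11a1 at -1.77 ± 0.25 (adjusted p = 0.0341). In Ehd3 the A384T over WT difference of 1.02 ± 0.30 did not pass (adjusted p = 0.600, or 0.0514 with the array number as a block).

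Pde4b encodes a main PDE4 enzyme of T cells and is known to be recruited to the T cell receptor region on co-stimulation. Of its 6 probe sets, 3 had log2 differences from mock between -1.27 and -0.59 in WT and A384T, none of them called, and the other 3 between -0.23 and 0.09. Probe set 1442700_at read -1.41, -1.40 and -1.09 in WT, -2.17, -1.08 and -0.91 in A384T, 0.05 and -0.43 in R397W and 0.08, -0.44 and 0.00 in mock. Every WT and A384T array was below every mock and R397W array. The differences from mock were -1.18 ± 0.30 for WT (adjusted p = 0.068) and -1.27 ± 0.30 for A384T (adjusted p = 0.0548), and that of A384T over WT was -0.09 with a 95% interval of -0.75 to 0.57. WT over mock and A384T over mock passed with the array number as a block (adjusted p = 0.0166 and 0.0119).

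Probe set 1422474_at of Pde4b read -0.30, -1.05 and -0.72 in WT, -0.43, -0.55 and -0.75 in A384T, 0.62 and 0.24 in R397W and 0.36, 0.00 and -0.32 in mock. R397W lay above all WT and A384T arrays, and WT array 1 fell within the mock range. In R397W over WT this probe set rose by 1.13 ± 0.24 (adjusted p = 0.0439). The call held without WT array 1, mock array 1 or mock array 3, but was lost without any other WT, mock or A384T array (adjusted p up to 0.133). Without 1 R397W array the difference was 0.93 or 1.32, and without all arrays numbered 1 it was 1.13. Only the size is given for these fits, which kept a lone R397W array. A trended, robust prior (0.0766), only the 2 groups compared (0.161), all probe sets but controls (0.0515) and quantile normalization (0.149) also lost the call. Quantile normalization of centred values evens out the spread of mock and WT arrays, so here and below a call lost under it cannot be told from that change. WT over mock was -0.70 ± 0.22 (adjusted p = 0.153, or 0.00813 with the block), and A384T over mock -0.59 ± 0.22 (adjusted p = 0.263, or 0.0219 with the block). Probe set 1422473_at read -0.99, -0.39 and -0.36 in WT, -0.97, 0.10 and -0.59 in A384T, -0.04 and 1.10 in R397W and -0.21, 0.72 and 0.00 in mock, so array number 2 was highest in A384T, R397W and mock. Its WT over mock difference was -0.75 ± 0.37 (adjusted p = 0.466, or 0.00841 with the block), and that of A384T over mock -0.66 ± 0.37 (adjusted p = 0.546, or 0.018 with the block). The other 3 Pde4b probe sets differed from mock by -0.23, 0.01 and 0.02 in WT, and 1446577_at and 1447718_at varied over the 11 arrays more than only 7.71% and 0.747% of all probe sets.

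RefSeq promoter windows (GRCm38.p6, 250 bases before to 50 after each start) were held for 5 of the 7 genes, 14 windows in all; those of Pde3b and Pde7a were not used here. They were searched on both strands for the cyclic AMP response element TGACGTCA and its core TGACG, which the longer one holds, and for the forkhead motif TGTTTAC and its looser form TGTTTNC, which also matches TGTTTAC. No member window held TGACGTCA or TGTTTAC, which occur in 1.79% and 3.65% of 32851 windows of the same length. TGACG was in 4 member windows, 1 each of Pde2a, Pde4a, Pde4b and Pde8a, and is found in 20.8% of all windows; TGTTTNC was in 6 member windows and in 20.5% of all. Forkhead protein FoxP3 is also known to bind TTTG repeats, and a run of 3 TTTG units, searched for after the windows had been read, was in 1 member window, of Pde4b, and in 0.63% of all. A match describes the letters and is no evidence of binding. Shown are 2 of the 4 windows of Pde4b, which had 3 of 6 probe sets with lower WT and A384T means than mock by 0.59 or more, and the window of Pde8a, whose probe sets lay above mock there, each on the + strand with the match in capitals (in the upper Pde4b window CGTCA, which is TGACG on the other strand, in the lower the run of overlapping repeats, and TGACG in Pde8a).
Pde4b, chr4:102421305-102421604: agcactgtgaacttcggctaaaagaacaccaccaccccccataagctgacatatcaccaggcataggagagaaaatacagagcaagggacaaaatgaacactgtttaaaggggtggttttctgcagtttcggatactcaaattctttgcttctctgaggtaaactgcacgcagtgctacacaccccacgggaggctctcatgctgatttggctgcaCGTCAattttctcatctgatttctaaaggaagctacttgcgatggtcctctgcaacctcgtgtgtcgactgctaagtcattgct
Pde4b, chr4:102569810-102570109: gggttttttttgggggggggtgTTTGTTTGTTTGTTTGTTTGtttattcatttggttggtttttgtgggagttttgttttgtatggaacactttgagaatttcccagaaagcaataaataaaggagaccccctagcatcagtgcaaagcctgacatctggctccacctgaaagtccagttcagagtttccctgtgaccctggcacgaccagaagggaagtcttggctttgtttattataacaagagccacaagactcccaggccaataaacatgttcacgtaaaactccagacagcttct
Pde8a, chr7:81213015-81213314: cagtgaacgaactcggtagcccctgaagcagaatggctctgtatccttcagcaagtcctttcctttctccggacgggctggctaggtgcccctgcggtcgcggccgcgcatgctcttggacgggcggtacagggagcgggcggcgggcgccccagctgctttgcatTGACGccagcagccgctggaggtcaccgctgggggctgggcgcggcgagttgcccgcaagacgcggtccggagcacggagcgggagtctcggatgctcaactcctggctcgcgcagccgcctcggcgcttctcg

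Pde4d, another PDE4 gene, had 1 probe set with lower values and 1 without. Probe set 1435280_at read -0.79, -0.91 and -0.08 in WT, -1.16, -0.70 and -0.30 in A384T, 0.01 and 0.26 in R397W and -0.06, 0.00 and 0.28 in mock. WT and A384T lay below mock on every array, although WT array 3 only narrowly. The differences from mock were -0.67 ± 0.25 for WT (adjusted p = 0.269, or 0.00956 with the block) and -0.80 ± 0.25 for A384T (adjusted p = 0.162, or 0.00387 with the block). Probe set 1459311_at lay between -0.20 and 0.15 on all 11 arrays. Pde4a, the third PDE4 gene measured, read -0.06, -0.11 and -0.15 in WT, -0.07, -0.38 and -0.45 in A384T, 0.09 and 0.26 in R397W and 0.00, 0.55 and -0.24 in mock, and its WT over mock difference of -0.21 ± 0.18 was not called (adjusted p = 0.781) and was 0.014 without mock array 2.

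Pde7a had negative WT over mock and A384T over mock differences at all 7 probe sets. Probe set 1438041_at read -0.92, -0.47 and -0.86 in WT, -0.91, -0.52 and -0.52 in A384T, -0.14 and 0.24 in R397W and 0.00, 0.51 and -0.03 in mock. Neither WT nor A384T overlapped mock or R397W. It fell by 0.91 ± 0.19 in WT against mock (95% interval -1.34 to -0.49, adjusted p = 0.03). In A384T against mock it was -0.81 ± 0.19, which passed only with the block (adjusted p = 0.0567, or 0.00128 with it). A trended, robust prior (0.0721) and a fit of only the 2 groups compared (0.0667) lost the WT call. The WT call was lost in 5 of the 11 fits that left out 1 array, those without WT array 1 or 3 or any mock array, where the adjusted p lay between 0.0525 and 0.118, and also after quantile normalization (0.105) and without all arrays numbered 1 (0.125).

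The other Pde7a probe sets ranged from -0.76 to -0.34 in WT over mock and from -1.10 to -0.35 in A384T over mock, none called. Probe set 1423314_s_at was -0.71 ± 0.19 in WT over mock (adjusted p = 0.076, or 0.00194 with the block), with WT arrays at -1.06, -0.42 and -0.67, A384T at -0.75, -0.51 and -0.77, R397W at -0.23 and 0.29, and mock at -0.16, 0.15 and 0.00. Its A384T over mock difference was -0.67 ± 0.19 (adjusted p = 0.105, or 0.00305 with the block). Probe set 1451839_a_at stood apart by array number: numbers 2 read 0.20 in WT, 0.33 in A384T, 0.42 in R397W and 1.11 in mock, against -0.81, -0.64, -0.40 and -0.23 for numbers 1 of the same groups. Its WT over mock difference of -0.56 ± 0.40 (adjusted p = 0.699) passed with the block (adjusted p = 0.0373). A384T over WT had intervals that included 0 at each of the 7 probe sets, that of 1438041_at running from -0.33 to 0.52.

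Pde8a was the member with higher values in WT and A384T than in mock, while R397W differed from mock by -0.04 and -0.07 at its 2 probe sets. Probe set 1418407_at read 0.51, 1.01 and 0.60 in WT, 0.56, 0.28 and 0.72 in A384T, -0.16 and 0.03 in R397W and 0.11, -0.09 and 0.00 in mock. Every WT and A384T array was above every mock and R397W array. It rose by 0.70 ± 0.16 in WT against mock (95% interval 0.36 to 1.05, adjusted p = 0.0376), while A384T over mock was 0.51 ± 0.16 (adjusted p = 0.144). That call held in only 3 of the 11 fits that left out 1 array, those without WT array 1 or A384T array 2 or 3, and the adjusted p reached 0.139 in the others. It was also lost after quantile normalization (0.128) and without all arrays numbered 1 (0.125). A trended, robust prior (0.0992) and a fit of only the 2 groups compared (0.0744) lost this call too. Probe set 1418406_at read 1.21, 0.87 and 0.85 in WT, 1.10, 0.52 and 0.60 in A384T, 0.33 and -0.56 in R397W and 0.34, -0.57 and 0.00 in mock, with WT over mock at 1.05 ± 0.28 (adjusted p = 0.0834, or 0.000559 with the block). Its A384T over mock difference was 0.82 ± 0.28 (adjusted p = 0.209, or 0.00304 with the block). R397W over WT was -1.09 ± 0.31 and -0.77 ± 0.17 at the 2 probe sets (adjusted p = 0.139 and 0.0531), and A384T over WT -0.23 (95% interval -0.85 to 0.38) and -0.19 (-0.53 to 0.16).

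Pde2a had its lowest group mean in A384T at all 3 probe sets, most clearly at the first described here. Probe set 1447707_s_at read -0.55, -0.58 and -0.24 in A384T, against 0.03, 0.14 and 0.02 in WT, 0.51 and 0.11 in R397W and 0.26, -0.07 and 0.00 in mock. All 3 A384T arrays were below the other 8. In R397W over A384T it rose by 0.77 ± 0.16 (adjusted p = 0.0399). The call held without mock array 1 or A384T array 3, but was lost without any other mock, WT or A384T array (adjusted p up to 0.126). Without 1 R397W array the difference was 0.57 or 0.97, and without all arrays numbered 1 it was 0.52. Each of these fits kept a lone R397W array, so only the size is given. Quantile normalization (0.138) and a fit of only the 2 groups compared (0.231) also lost the call. A384T over WT was -0.52 ± 0.14 with an interval of -0.84 to -0.20, which did not pass over all probe sets (adjusted p = 0.5, or 0.163 with the block). A384T over mock was -0.52 ± 0.14 (adjusted p = 0.102, or 0.0353 with the block). The other 2 Pde2a probe sets were -0.27 and -0.42 in A384T over mock, while WT over mock was -0.08 and 0.07. At 1452202_at the A384T arrays read -0.83, -0.20 and -0.33, and without A384T array 1 the difference was -0.24. At 1447708_x_at they read -0.40, -0.38 and -0.06, which overlaps both WT and mock, and the A384T over WT interval ran from -0.45 to 0.08. The name ending _s_at or _x_at of 2 of the 3 probe sets marks probes that may match other transcripts.

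Of the 22 probe sets, 1 rose and 2 fell in WT over mock, 13.6% of them, beside 3.21% of all 34945 probe sets called, 1.81% higher and 1.4% lower; 12 of 22 did not overlap between the groups, beside 16.2% of all. The 3 belong to Pde8a, Pde3b and Pde7a. In the fit blocked on array number 10 passed, 2 on the higher side (beside 4.64% of all) and 8 on the lower (4.01%), 8.66% of all in either direction. The members' median difference was -0.44, beside -0.01 over all probe sets, and 17 of 22 were negative. The members were chosen with earlier results of these data known. Probe sets of 1 gene are not independent, and Pde7a holds 7 and Pde4b 6 of the 22. Here and below the counts therefore describe the members, and a shift of the family was not tested. In A384T over mock limma called 0 of 22, beside 2.7% of all, although 15 of 22, and 4377 of all 34945, had an unadjusted p under 0.05 and 14 did not overlap, beside 15.3% of all. The median was -0.47. With the block 12 of 22 passed, 1 higher and 11 lower, beside 2923 of all 34945.

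**Figure D2:**
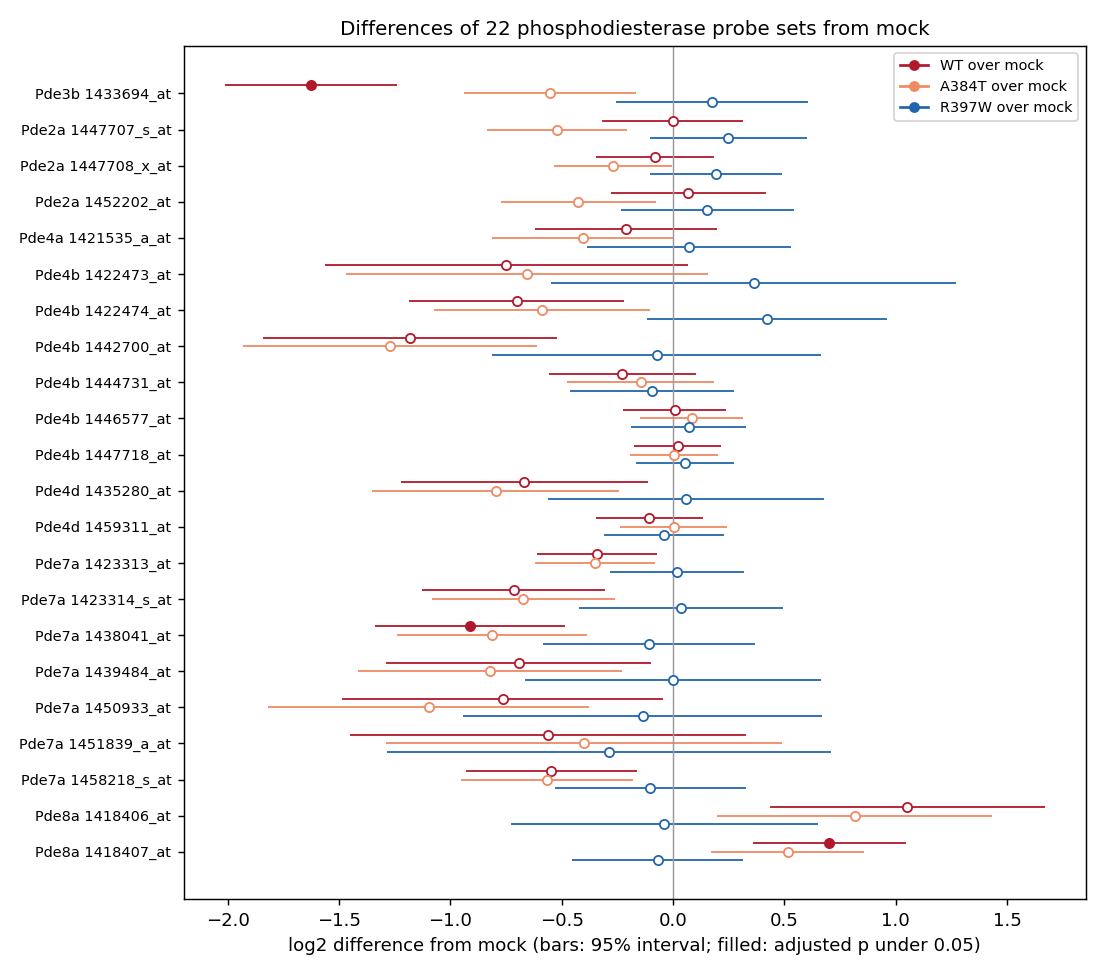
Log2 difference from mock of each of the 22 probe sets in WT, A384T and R397W, with 95% intervals as bars and filled symbols for an adjusted p under 0.05. The 3 filled symbols are those of WT for Pde3b (-1.63), Pde7a 1438041_at (-0.91) and Pde8a 1418407_at (0.70), and every R397W interval includes 0.

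R397W over mock gave 0 called of 22 members and 0 of 34945 probe sets (0%), with limma as fitted and when blocked on array number; 0 of the 22 and 612 of all had an unadjusted p under 0.05. The largest absolute R397W difference from mock among members was 0.42, at Pde4b 1422474_at, and 4 of 22 did not overlap, beside 11.8% of all. With 2 R397W arrays the median standard error over all probe sets was 0.159, against 0.142 where both groups had 3.

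Against WT, R397W had 2 of 22 called, both higher (Pde3b and Pde4b 1422474_at), or 9.09%, beside 2.15% of all probe sets in either direction and 0.959% higher. Groups did not overlap in 14 of 22, 12 higher and 2 lower, beside 24.3% of all. A384T over WT had 0 of 22 called by limma, beside 0.114% of all; 3 members and 1492 of all had an unadjusted p under 0.05, and 3 of 22 did not overlap, beside 7.72% of all. With the block 1 was called, Pde3b, beside 0.589% of all. Pde3b and Pde2a were the genes with an A384T over WT interval that excluded 0, on opposite sides of it. R397W over A384T had 1 of 22 called, higher, Pde2a 1447707_s_at, beside 1.83% of all in either direction and 0.75% higher, and 14 of 22 did not overlap, beside 23.6%. Comparisons with the same WT or mock arrays share those arrays' errors.

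**Figure D3:**
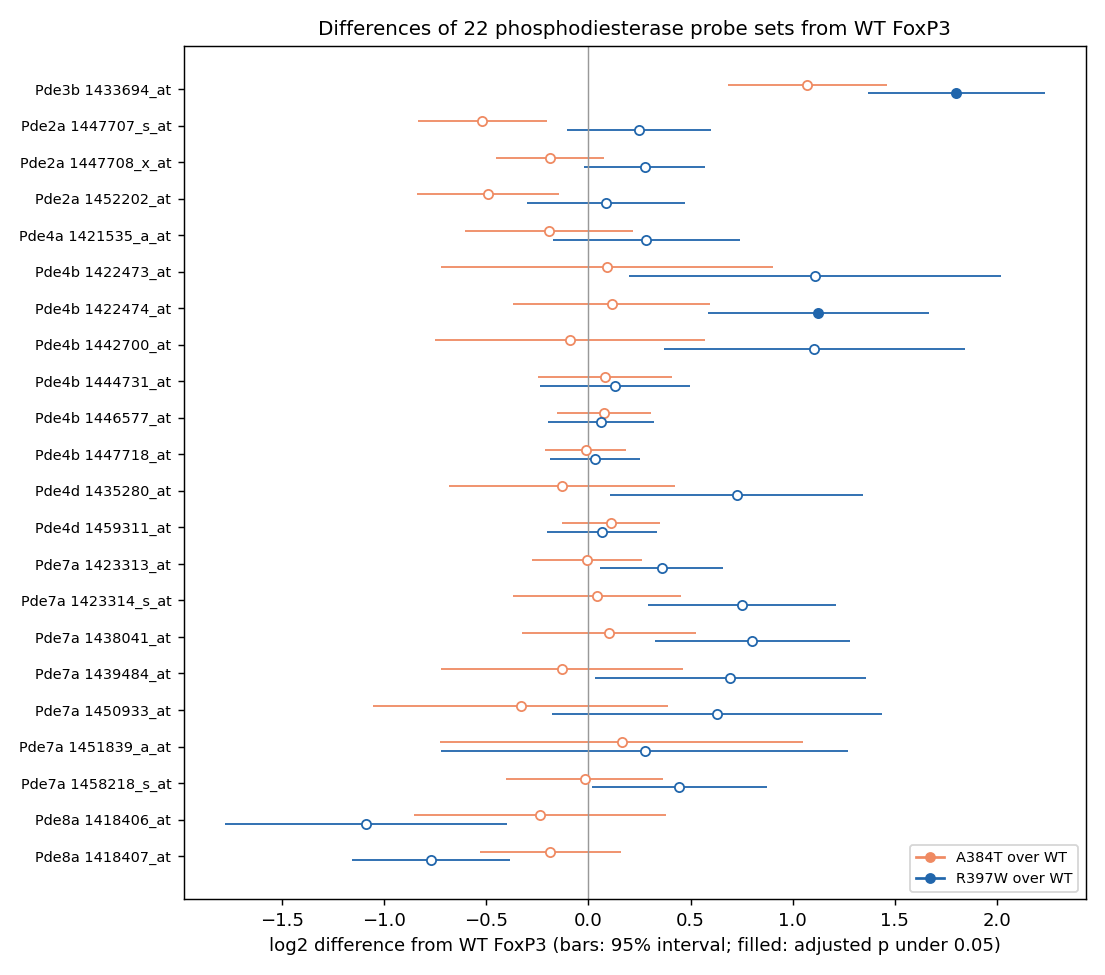
Log2 difference from WT of each of the 22 probe sets in A384T and R397W, with 95% intervals as bars and filled symbols for an adjusted p under 0.05. Pde3b is higher in both variants (1.07 in A384T and 1.80 in R397W), and Pde2a 1447707_s_at is lower in A384T (-0.52).

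Probe sets of one gene varied together to unlike degrees over the 11 arrays. Pearson r between probe sets ran from 0.66 to 0.93 in Pde2a and 0.28 to 0.94 in Pde7a, was 0.74 in Pde8a and 0.09 in Pde4d, and ran from -0.27 to 0.68 in Pde4b. With the probe sets of a gene averaged and p adjusted over 18193 genes, WT over mock gave -0.47 ± 0.10 for Pde4b (adjusted p = 0.017) and 0.88 ± 0.16 for Pde8a (adjusted p = 0.00953), while Pde7a at -0.65 ± 0.18 was not called (adjusted p = 0.072). A384T over mock was then called for Pde4b (-0.43, adjusted p = 0.031) and Pde8a (0.67, adjusted p = 0.0449), and A384T over WT for Pde3b (adjusted p = 0.038). Pde3b has 1 probe set, so averaging left its difference at 1.07. With 1 probe set per gene, also over 18193 genes, that difference was not called (adjusted p = 0.063). R397W over WT was called for Pde3b (1.80, adjusted p = 0.000485), Pde4b (0.60, adjusted p = 0.0119) and Pde8a (-0.93, adjusted p = 0.0164), and R397W over A384T for Pde2a (0.60, adjusted p = 0.0248) and Pde4b (0.55, adjusted p = 0.0193).

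The wider cyclic AMP pathway was read from 6 lists with 97 of 106 genes measured, at 230 probe sets. In WT over mock 9 rose and 6 fell, 6.52% beside 3.21% of all; in A384T over mock 5 rose and 2 fell, 3.04% beside 2.7%; and R397W over mock called 0. The list medians over all 230 were -0.02 in both WT and A384T over mock. With the array number as a block, 16 rose and 13 fell in WT over mock, 12.6% beside 8.66% of all. A384T over WT had 0 of 230 called, beside 0.114% of all, and 2 with the block, 0.87% beside 0.589% of all, Vipr1 and the anchor Akap12, which was named for this call (0.71 ± 0.26, adjusted p = 0.968, or 0.047 with the block).

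**Figure D4:**
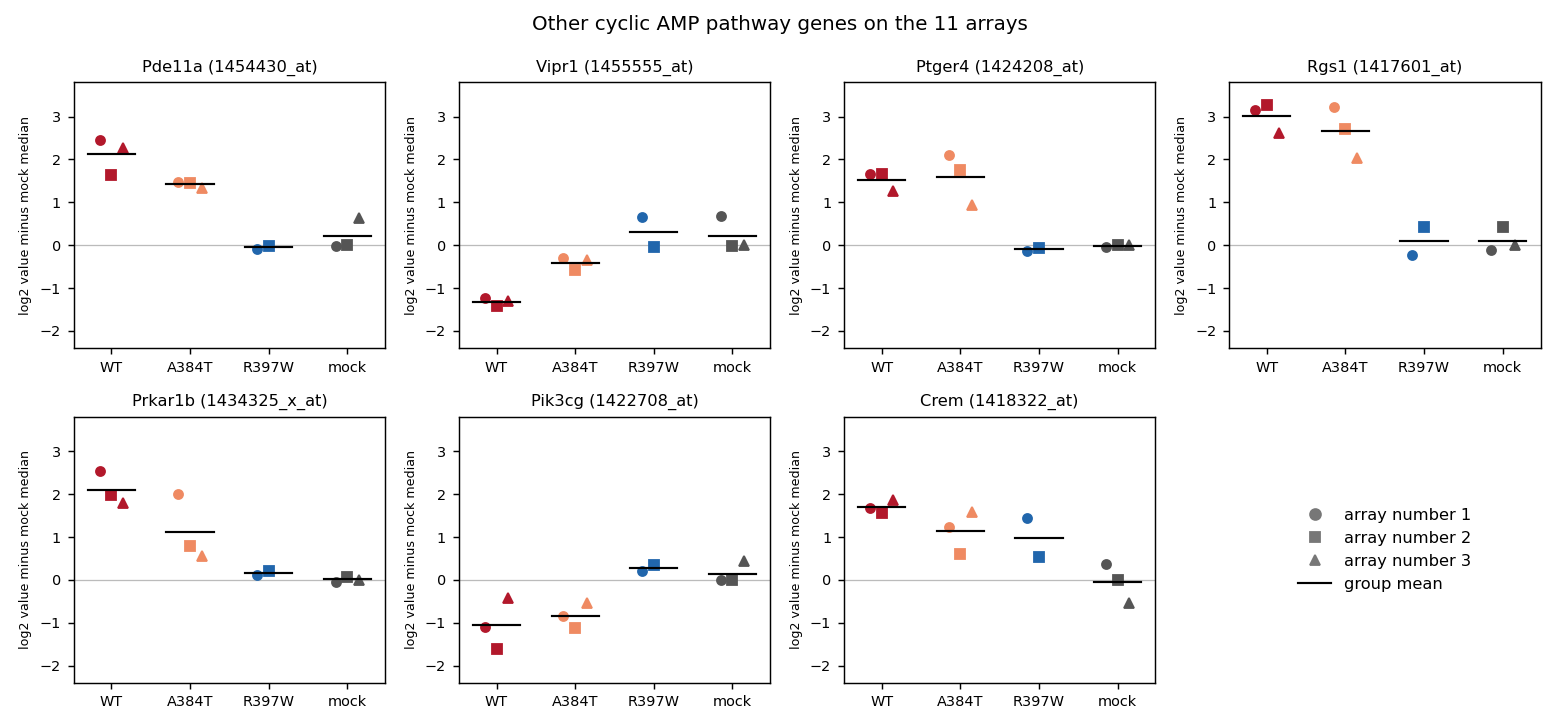
Log2 value on each array, relative to the mock median, for 1 called probe set of each of 7 genes of the wider cyclic AMP pathway, with groups from left to right WT, A384T, R397W and mock; points are arrays, their shape gives the array number, and bars are group means. Rgs1, Ptger4 and Pde11a are high in WT and A384T, and Vipr1 is lowest in WT.

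Among 35 probe sets of 15 other phosphodiesterase genes 1 rose in WT over mock, 2.86% beside 3.21% of all, that of Pde11a, which hydrolyses both cyclic nucleotides. It read 2.45, 1.64 and 2.27 in WT, 1.49, 1.45 and 1.34 in A384T, -0.08 and -0.01 in R397W and -0.01, 0.00 and 0.63 in mock, with differences from mock of 1.91 ± 0.22 for WT (adjusted p = 0.000964) and 1.22 ± 0.22 for A384T (adjusted p = 0.0149). No WT or A384T array overlapped mock. None of 33 cyclase probe sets of 17 genes was called in any of the 6 comparisons, those named by rule being Gucy2e (-0.24 ± 0.09, adjusted p = 0.243) and Adcy9 (0.23 ± 0.10, adjusted p = 0.361) in WT over mock.

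Of 34 probe sets of G proteins, their regulators and receptors, 2 rose and 2 fell in WT over mock, 11.8% beside 3.21% of all. With the block it was 3 and 4, 20.6% beside 8.66% of all. Rgs1, which speeds GTP hydrolysis on Gi and Gq subunits, rose by 2.91 ± 0.31 in WT (adjusted p = 0.000626) and by 2.56 ± 0.31 in A384T, and Ptger4 (1424208_at), the Gs-coupled receptor EP4 for prostaglandin E2, by 1.54 ± 0.24 in WT (adjusted p = 0.00683) and 1.61 ± 0.24 in A384T. Vipr1, the Gs-coupled receptor for vasoactive intestinal peptide, fell at both its called probe sets. At 1455555_at it read -1.24, -1.43 and -1.31 in WT, -0.29, -0.58 and -0.36 in A384T, 0.65 and -0.05 in R397W and 0.69, -0.02 and 0.00 in mock. WT lay below all other arrays and A384T between WT and mock without overlap. The WT over mock difference was -1.55 ± 0.22 (adjusted p = 0.00329), that of A384T over mock -0.63 (adjusted p = 0.216), and that of A384T over WT 0.92 ± 0.22, which passed only with the block (adjusted p = 0.339, or 0.0133 with it).

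Of 38 probe sets of protein kinase A and EPAC genes 4 rose in WT over mock and 0 fell, 10.5% beside 3.21% of all. With the block it was 7 and 0, 18.4% beside 8.66% of all. Prkar1b, a regulatory subunit of protein kinase A, rose by 2.10 ± 0.32, 1.60 and 0.73 (adjusted p = 0.00605, 0.0262 and 0.031), and Pkig, a protein kinase A inhibitor, by 0.79 ± 0.14 (adjusted p = 0.0114). Each of these Prkar1b probe sets has a name ending _x_at or _s_at, so its probes may match other transcripts. At 1434325_x_at Prkar1b was 2.54, 1.99 and 1.80 in WT, 2.02, 0.80 and 0.56 in A384T, 0.11 and 0.21 in R397W and -0.04, 0.08 and 0.00 in mock. The A384T arrays lay above mock but 1 overlapped WT, and A384T over mock was 1.11 (adjusted p = 0.129).

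Of 44 probe sets of A-kinase anchors and phosphodiesterase partners 4 fell in WT over mock and 0 rose, 9.09% beside 3.21% of all. With the block it was 7 and 1, 18.2% beside 8.66% of all. Pik3cg encodes the phosphoinositide 3-kinase gamma catalytic subunit, a known partner of PDE3B. At 1422707_at it read -0.996, -1.14 and -0.73 in WT, -0.67, -0.80 and -0.67 in A384T, -0.01 and 0.19 in R397W and -0.05, 0.00 and 0.09 in mock, and fell by 0.97 ± 0.12 in WT against mock (adjusted p = 0.00142). Arrb2, the arrestin that brings PDE4 to receptors, fell by 0.55 and 0.41 in WT (adjusted p = 0.0414 and 0.0471), and the anchor Akap1 fell by 0.57 ± 0.12 in A384T against mock (adjusted p = 0.0401).

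Of 50 probe sets of CREB factors and cyclic AMP-responsive genes 2 rose in WT over mock and 0 fell, 4%, near the 3.21% of all. With the block 4 rose and 2 fell, 12% beside 8.66% of all. Both that rose without the block were of Crem, whose products include the inducible repressor ICER. Probe set 1449037_at read 1.32, 1.39 and 1.99 in WT, 0.69, 0.96 and 1.06 in A384T, 0.78 and 0.38 in R397W and 0.04, 0.00 and -0.11 in mock. WT lay above the rest, and A384T and R397W overlapped each other above mock. It rose by 1.59 ± 0.18 in WT (adjusted p = 0.00106) and by 0.93 ± 0.18 in A384T (adjusted p = 0.026), and fell by 0.99 in R397W against WT (adjusted p = 0.0374). At 1418322_at the WT over mock difference was 1.75 ± 0.31 (adjusted p = 0.0119), and the R397W arrays, at 1.44 and 0.53, were also above mock, though not called.

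With 1 array left out, the WT over mock calls of Pde11a, Rgs1, Ptger4, Vipr1 1455555_at, Prkar1b 1434325_x_at, Pik3cg 1422707_at and both Crem probe sets held in all 11 fits, and so did the A384T over mock calls of Rgs1 and of Ptger4 1424208_at. Without all the arrays numbered 1, however, 8 of the 15 WT over mock calls were lost, that of Ptger4 among them (adjusted p = 0.0649), as was its A384T over mock call (adjusted p = 0.0969). The call of Pkig was lost without WT array 1 (0.72, adjusted p = 0.0551). The A384T over mock calls held in 7 fits for Pde11a, 6 for Crem and 2 for Akap1, with adjusted p values up to 0.0679, 0.0979 and 0.127. Those of WT over mock held in 1 fit for Pik3cg 1422708_at and in 2 for Vipr1 1423004_at and each Arrb2 probe set, with adjusted p values up to 0.153, 0.117 and 0.159, and in 7 and 6 for the other 2 Prkar1b probe sets. The R397W over WT call of Crem held in 2 fits (adjusted p up to 0.274). A further quantile normalization ended 10 of the 15 WT over mock calls, those of Pde11a, both Vipr1, Pkig, Pik3cg 1422708_at, both Arrb2, Crem 1418322_at and the Prkar1b probe sets other than 1434325_x_at, with adjusted p values of 0.0728 for Pde11a, 0.0505 for Vipr1 1455555_at and 0.211 for Crem. It was run on centred values, whose SD over all probe sets was 0.178 to 0.27 in mock and 0.357 to 0.442 in WT. It makes these spreads equal, so a call lost under it cannot be told from that change of scale.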

How the data were processed

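RNA of 11 samples was measured on 11 Affymetrix arrays, 1 each. The deposited table holds log2 values; the submitters' processing notes name RMA (no version), which subtracts background, quantile-normalizes and summarizes the probes of a set. The mock median is exactly 0 at all 45101 probe sets, so the values were centred on mock, a step not given in the sources used here; the base was taken as 2. Such centring keeps differences and loses levels, so no filter on low signal could be applied. The number of arrays limits the precision.

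Gene symbols came from the platform annotation. Of 34958 probe sets with 1 symbol, 34945 of 18193 genes remained without control probe sets; 932 had several symbols and 9211 none listed. limma 3.58.1 (R 4.3.3) was fitted as 1 mean per group with 7 residual degrees of freedom, and 6 contrasts were tested with eBayes and Benjamini-Hochberg adjustment over the 34945, after a test on simulated data. Tables and figures used Python 3.11.15, pandas 2.3.3 and matplotlib 3.10.9.

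Arrays of different groups share numbers in the sample titles. Deviations from group means of same-numbered arrays correlated at 0.672, 0.504 and 0.559 between WT and mock. Between A384T and WT they correlated at 0.719, 0.153 and 0.474, and differently numbered arrays of these groups at -0.609 to 0.284. The 0.153 of the arrays numbered 2 lay within that range, so the evidence for pairs of A384T and WT is uneven. Of the correlations between A384T and mock, 1 was 0.0858, and R397W has only 2 numbers, so pairs are less certain there. The replicate block was nevertheless fitted to the arrays of every group, so each blocked result assumes such pairs.

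Alternatives were the replicate block, other variance priors, only the groups compared, leaving out arrays, other units per gene and other normalization. Quantile normalization was applied to the centred values, so it also evened out the narrower spread of the mock arrays. Genes named were members, up to 4 called pathway probe sets per list and comparison (2 where none was called), and the 5 most alike and 5 most opposed to Pde3b. Members and lists were chosen with earlier results of these data known.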

Additional observations from a re-analysis of the deposited data

How the results depend on the processing

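With the replicate block, member calls numbered 10 in WT over mock (3026 over all probe sets), 12 in A384T over mock (2923, with Pde3b called at an adjusted p of 0.0272), 0 in R397W over mock (0), 1 in A384T over WT (206), 9 for R397W over WT (2238) and 12 for R397W over A384T (2275). In WT over mock and A384T over WT it ended no call among the member, pathway and like-pattern differences printed. Beyond those given with it, it added the A384T over WT calls of Stk17b (adjusted p = 0.0405 with the block) and Iqsec1 (0.0103). With a trended, robust prior they numbered 1 in WT over mock (497) and 1 in R397W over WT (303); over all probe sets, A384T over mock had 369 and R397W over A384T 241. With only the 2 groups compared, R397W over WT had 1 member call (326 in all) and R397W over A384T 0 (161), while all probe sets gave 531 for A384T over mock and 12 for A384T over WT. Without the arrays numbered 1, all probe sets called were 495 for WT over mock, 354 for A384T over mock, 2 in A384T over WT, 186 for R397W over WT (1 member) and 117 in R397W over A384T (0 members). With 1 probe set per gene, that of largest SD, they were 659 (1 member), 577, 459 (1 member) and 413 for WT over mock, A384T over mock, R397W over WT and R397W over A384T. Gene means gave 2 member genes for A384T over mock, 1 for A384T over WT and 2 in R397W over A384T. Quantile normalization gave 450 calls (1 member) for WT over mock, 424 for A384T over mock, 7 (1 member) for A384T over WT, 257 (1 member) for R397W over WT and 269 (0 members) for R397W over A384T. Testing all probe sets but controls left 1 member in R397W over WT.

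Leaving out 1 array gave 1 to 4 member calls and 648 to 1137 in all in WT over mock, 0 to 2 and 587 to 849 in A384T over mock, 0 to 1 and 17 to 32 in A384T over WT, 1 to 2 and 235 to 777 for R397W over WT, and 0 to 1 and 204 to 612 for R397W over A384T. R397W over mock gave 0 under each alternative run. A lone R397W array was assumed to vary like the other groups. Over 18 to 20 alternatives each, the 39 pathway differences and the 59 member differences with an unadjusted p under 0.05 kept their sign. They were picked by their p in the main fit, and the fits share arrays, so kept signs are weak evidence of robustness. Of the 73 other member differences 40 changed sign under at least 1 alternative, with no call, among them Pde4a in WT over mock (0.014 without mock array 2). Apart from fewer features or samples tested, the cause of these shifts was not tested. A filter on low signal could not be run on centred values. Signal over background is unknown, so flat probe sets may be undetected ones.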
